A study of Glycine max with 47 samples.

Results

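The genes described here are the 200 whose RNA level in whole soybean roots was higher in the cultivar MN1806CN than in PI518671 under every treatment and at both time points, taken from the 55983 genes of the table. Levels were expressed as CPM, the estimated count of a gene scaled to the same total in each library, and transformed to log2(CPM + 1). For each of 8 pairs of groups, 4 treatments at 2 time points, the median over the MN1806CN libraries minus the median over the PI518671 libraries was taken, and the smallest of the 8 differences was the score of the gene. Genes whose ID starts with Glyma.18g or Glyma.19g22, 3122 in all, were left out by this rule, and the 200 genes with the highest score of the remaining 52861 were taken as members. The cultivar difference therefore chose the members, and all values that compare the cultivars are given as a description without a test.

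Roots of *Glycine max* were collected from 2 genotypes. PI518671 is the accession of the cultivar Williams 82, susceptible to the soybean cyst nematode (SCN) and to the soybean aphid (SBA) and the genotype from which the soybean reference transcripts come. MN1806CN is resistant to SCN and susceptible to SBA. Each genotype received 4 treatments: SCN eggs given at planting, SBA placed on the leaves of young plants, both pests (SCN:SBA), or neither (control). Roots were sampled at 5 and 30 dpi, days after the aphids were placed, so a plant of an SCN group had been with the nematode for longer than its dpi value says. The 2 time points stood in different water baths, so time, plant age and bath cannot be told apart. Of the 47 libraries, 23 were from MN1806CN and 24 from PI518671, with 3 libraries for each of the 16 groups except the MN1806CN control at 30 dpi, which had 2. A library was made from the roots of a plant of its own. Each genotype is a single line, so resistance to SCN cannot be told apart from any other difference between these lines, and the comparison of the cultivars is a comparison of the lines as a whole.

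SCN is a sedentary parasite whose juveniles enter the root and turn cells near the vascular tissue into a feeding site, the syncytium, and the aphid feeds on phloem sap above ground. In a resistant soybean the feeding site fails to develop, in the best known cases through genes that act inside the cells of that site. Cultivars also differ at many genes in ways unrelated to a parasite: a gene can be missing, silenced, duplicated or carry another promoter in one of them, and breeding can carry long chromosome segments from a donor into a new line together with the gene that was selected. Such a difference can stay in place under every treatment or change with it, and none of these causes was tested here. Since whole roots were measured, fewer cells that express a gene and less RNA in each cell cannot be told apart.

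The IDs of the table carry the chromosome and the order of the genes along it, but neither the table nor the reference available here pairs any of them with a gene name or function (0 IDs matched), and members are therefore described by ID, level and place. For the same reason the tissue named on the labels was not checked against root markers. Library totals ran from 8472717 to 47902174 estimated counts, with a median of 18350922, so that a level of 0.5 CPM meant 4.24 counts where the total was lowest and 23.95 where it was highest. The PI518671 controls at 5 dpi stood apart: over all genes at the filter (0.5 CPM or more in at least 1 library) their group median was lower than the median of the 7 other PI518671 groups, by a median of −0.31 on the log2 scale, against −0.15 to 0.18 for those 7 groups and −0.069 for the MN1806CN controls at 5 dpi. The median difference between the cultivars was 0.21 in that pair on the log2 scale, against −0.088 to 0.064 in the 7 others, and 0.013 after scaling by TMM. With TMM scaling, 199 of the 200 members still had a higher median in MN1806CN in that pair, and 200 in each of the 7 others.

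The number of members, 200, was set by the rule. Of the 52861 genes the rule could take, 2088 (3.95%) were higher in MN1806CN in all 8 pairs, and 1578 (2.99%) were lower in all 8. These shares include genes with little or no signal, as 40862 of the 52861 were at the filter. The score of the members ran from 3.78 down to 0.47, with a median of 0.70, and was 1 or more, a 2-fold difference in CPM + 1, in 50 members and 2 or more in 11. The largest of the 8 differences of a member had a median of 2.41 and reached 6.54. At the lower end the list had no gap: Glyma.10g253600, Glyma.17g255900 and Glyma.08g212300, the last inside, had scores of 0.478, 0.476 and 0.4725, and Glyma.10g115500, Glyma.03g149600 and Glyma.08g146600, the first outside, had 0.4721, 0.4708 and 0.4707. Applied in the opposite direction, the rule gave a list of much the same depth, with a highest score of 3.23, a median of 0.67 and a score of 0.43 for the last of its 200 genes.

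The difference of the members was spread over all 8 pairs. Its median over the 200 members was 1.62, 1.41, 1.67 and 1.21 on the log2 scale at 5 dpi, in the order control, SCN, SBA and both pests, and 1.19, 1.51, 1.29 and 1.39 at 30 dpi. The pair that set the score was SBA at 30 dpi for 38 members and both pests at 30 dpi for 37, but SBA at 5 dpi for only 7 and SCN at 30 dpi for 8. These medians describe what the rule chose.

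**Figure D1:**
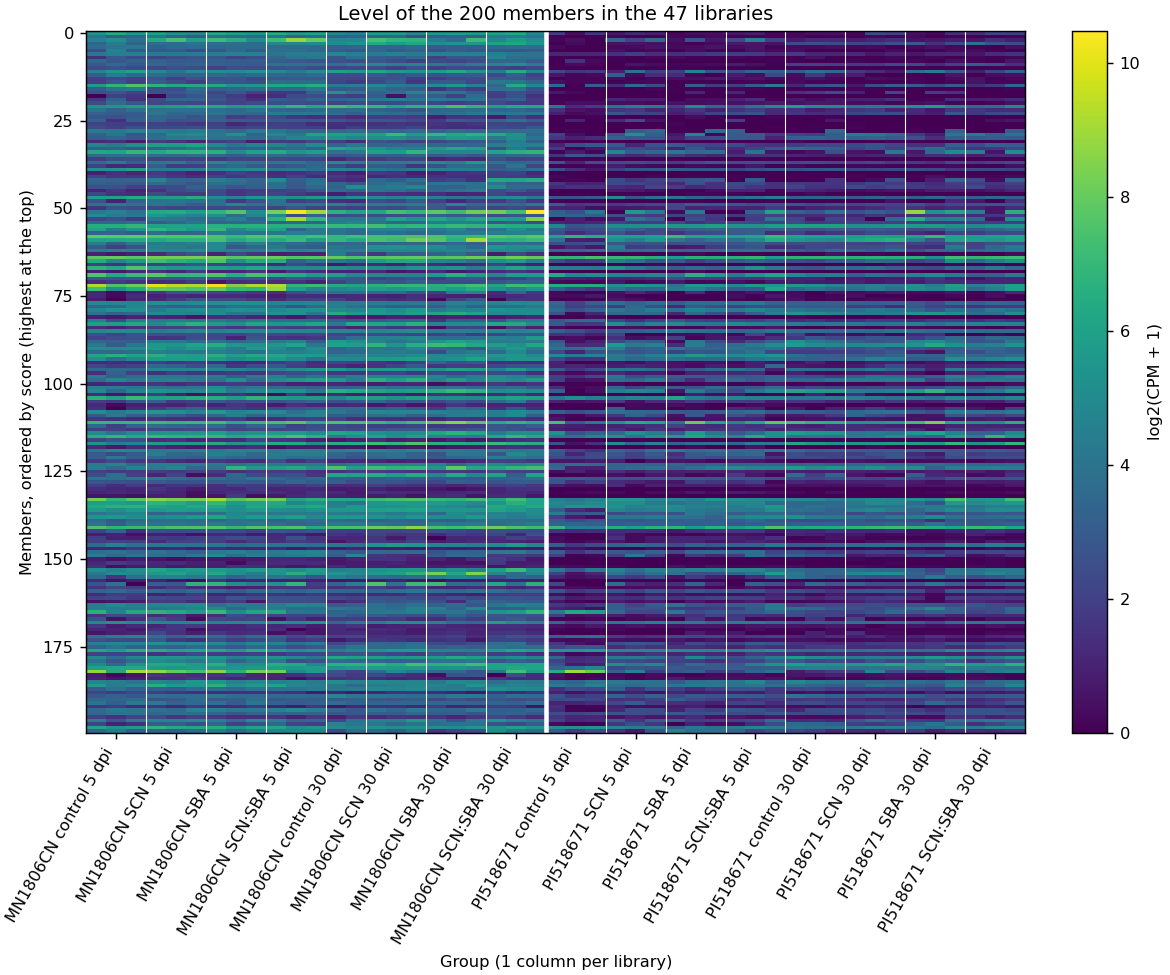
Level of each of the 200 members (rows, ordered by score) in each of the 47 libraries (columns, by group; thin white lines part the groups and the thick line the cultivars), as log2(CPM + 1). The 23 MN1806CN columns at the left are brighter in nearly every row, while the brightness of single rows changes from group to group within each cultivar.

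As a pool of RNA, the members held 0.408 to 0.810% of all counts of an MN1806CN library (median 0.565%) and 0.130 to 0.249% of a PI518671 library (median 0.162%). No library of either cultivar reached the range of the other, a separation that the rule favours, as it chose the members from these libraries. Gene by gene the separation was less complete. In 51 members every MN1806CN library was above every PI518671 library, a property of 54 of all 40862 genes at the filter that the rule could take (0.132%). In the other 149 members at least 1 PI518671 library reached the lowest MN1806CN library, although the group medians never crossed. A single PI518671 library reached the lowest MN1806CN level of between 29 and 79 members (median 52.5). The SD of replicates within groups had a median over members of 0.38 in MN1806CN and 0.40 in PI518671 on the log2 scale.

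A cut at a PI518671 median of 0.5 CPM was used to part members low in PI518671 from a larger group with a higher level there. The medians had no gap at this cut, with 0.493 CPM for Glyma.04g050800 and 0.501 for Glyma.19g231700. PI518671 medians were under 0.5 CPM in 64 members and exactly 0 in 21, but no member had a count of 0 in all 24 PI518671 libraries, and the nearest had it in 23. In 31 members no PI518671 library reached 0.5 CPM. The MN1806CN medians of these 31 ran from 0.721 to 11.1 CPM with a median of 2.11, 26 of them showed no overlap between the cultivars, and 19 reached 0.5 CPM in every MN1806CN library. The other group, the 136 members with a PI518671 median of 0.5 CPM or more, had a ratio of MN1806CN to PI518671 medians of 3.18 in the middle of its range, under 2 in 11 members, from 2 to 4 in 78, and 4 or more in 47. In the plot of medians the first group lies along the left edge and runs on into the second.

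**Figure D2:**
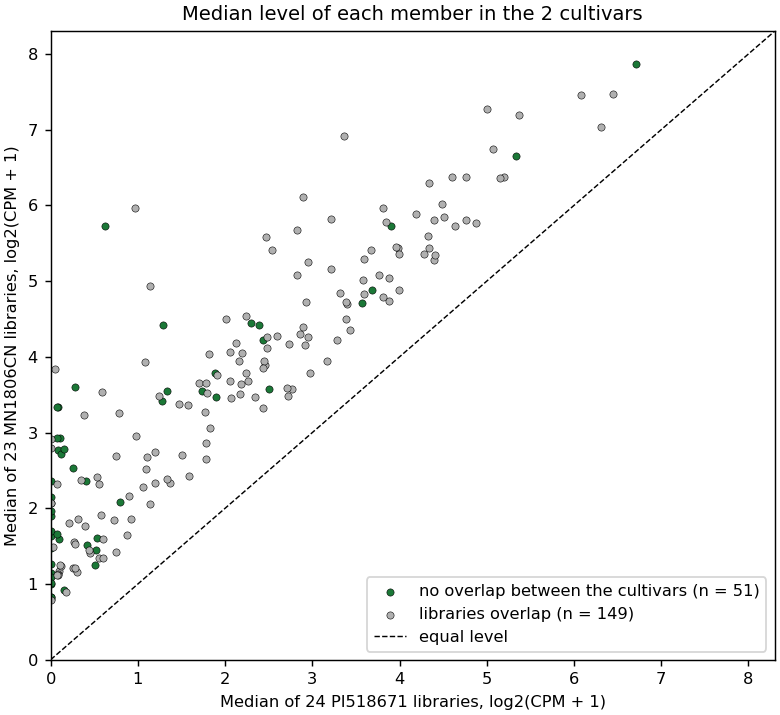
Median level of each member in the 24 PI518671 libraries (horizontal) and the 23 MN1806CN libraries (vertical), both as log2(CPM + 1); green points are the 51 members without overlap between the cultivars, grey points the other 149, and the dashed line marks equal levels. All points lie above the line because the rule chose them so; those without overlap are found both near 0 in PI518671 and at high levels in both cultivars.

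Glyma.15g246100, on chromosome 15, had the highest score, 3.78. Its lowest, median and highest levels were 22.2, 52.2 and 84.9 CPM in MN1806CN and 0.11015, 0.544 and 4.05 CPM in PI518671, a ratio of medians of 95.9. No library of the cultivars overlapped, and the gene was detected in all 24 PI518671 libraries. Within PI518671 its level was uneven between plants: the SCN plants at 30 dpi had 0.137, 4.05 and 2.88 CPM.

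Glyma.16g092900, the member with the second score (3.004), was at or near 0 in PI518671. It ran from 4.27 to 18.7 CPM in MN1806CN (median 9.12), and in PI518671 from 0 to 0.229 CPM (median 0.0614), with 5 of the 24 libraries at 0. A PI518671 value of this size stands for a few counts at most, so no ratio is given. Glyma.10g175400 behaved in the same way, with 6.98 to 16.9 CPM in MN1806CN and 0 to 0.488 in PI518671, and was among the most even members between replicates, with an SD within groups of 0.15 on the log2 scale in MN1806CN. Another 3 of the 10 highest scores were under 0.5 CPM in nearly every PI518671 library: Glyma.07g063000 had a median of 6.61 CPM in MN1806CN and 0.0772 in PI518671, Glyma.14g096900 had 5.83 and 0.0572, and Glyma.04g104700 had 6.64 and 0.0512. The last of them had a single PI518671 library well above the rest, a control at 5 dpi with 1.91 CPM, which was still below its lowest MN1806CN value of 3.13.

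Glyma.16g040700 was expressed in every library of both cultivars at distinct levels. It lay between 14.7 and 28.9 CPM in all 23 MN1806CN libraries (median 20.4) and between 0.515 and 2.83 in all 24 PI518671 libraries (median 1.44), a ratio of medians of 14.2. Its replicates were close to each other within most groups, and the changes called for it within MN1806CN were small: a log2 fold change of −0.79 ± 0.18 (SE) with both pests at 30 dpi and of 0.23 ± 0.077 (SE) from 5 to 30 dpi, with adjusted p of 0.0134 and 0.0185 by edgeR's quasi-likelihood F test, Benjamini-Hochberg adjusted.

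Other members kept the contrast while their level moved widely. Glyma.10g185900 had a median of 61.5 CPM in MN1806CN, with libraries from 11.7 to 449, and of 0.953 CPM in PI518671, with libraries from 0.05001 to 21.8. The ranges of the cultivars overlap when all libraries are pooled, but within each of the 8 pairs the medians differed by 2.99 or more on the log2 scale. Glyma.06g205800 (8.86 to 83.6 CPM in MN1806CN and 0 to 13.2 in PI518671) and Glyma.04g159300 (6.76 to 33.7 and 0 to 7.41) overlapped over all libraries but not within 5 dpi or within 30 dpi. Over all members, the highest of the 8 group medians in MN1806CN was 3.10 times the lowest in the middle of the list, under 2 times in 34 members and 10 times or more in 19, and 97.1 times at most.

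**Figure D3:**
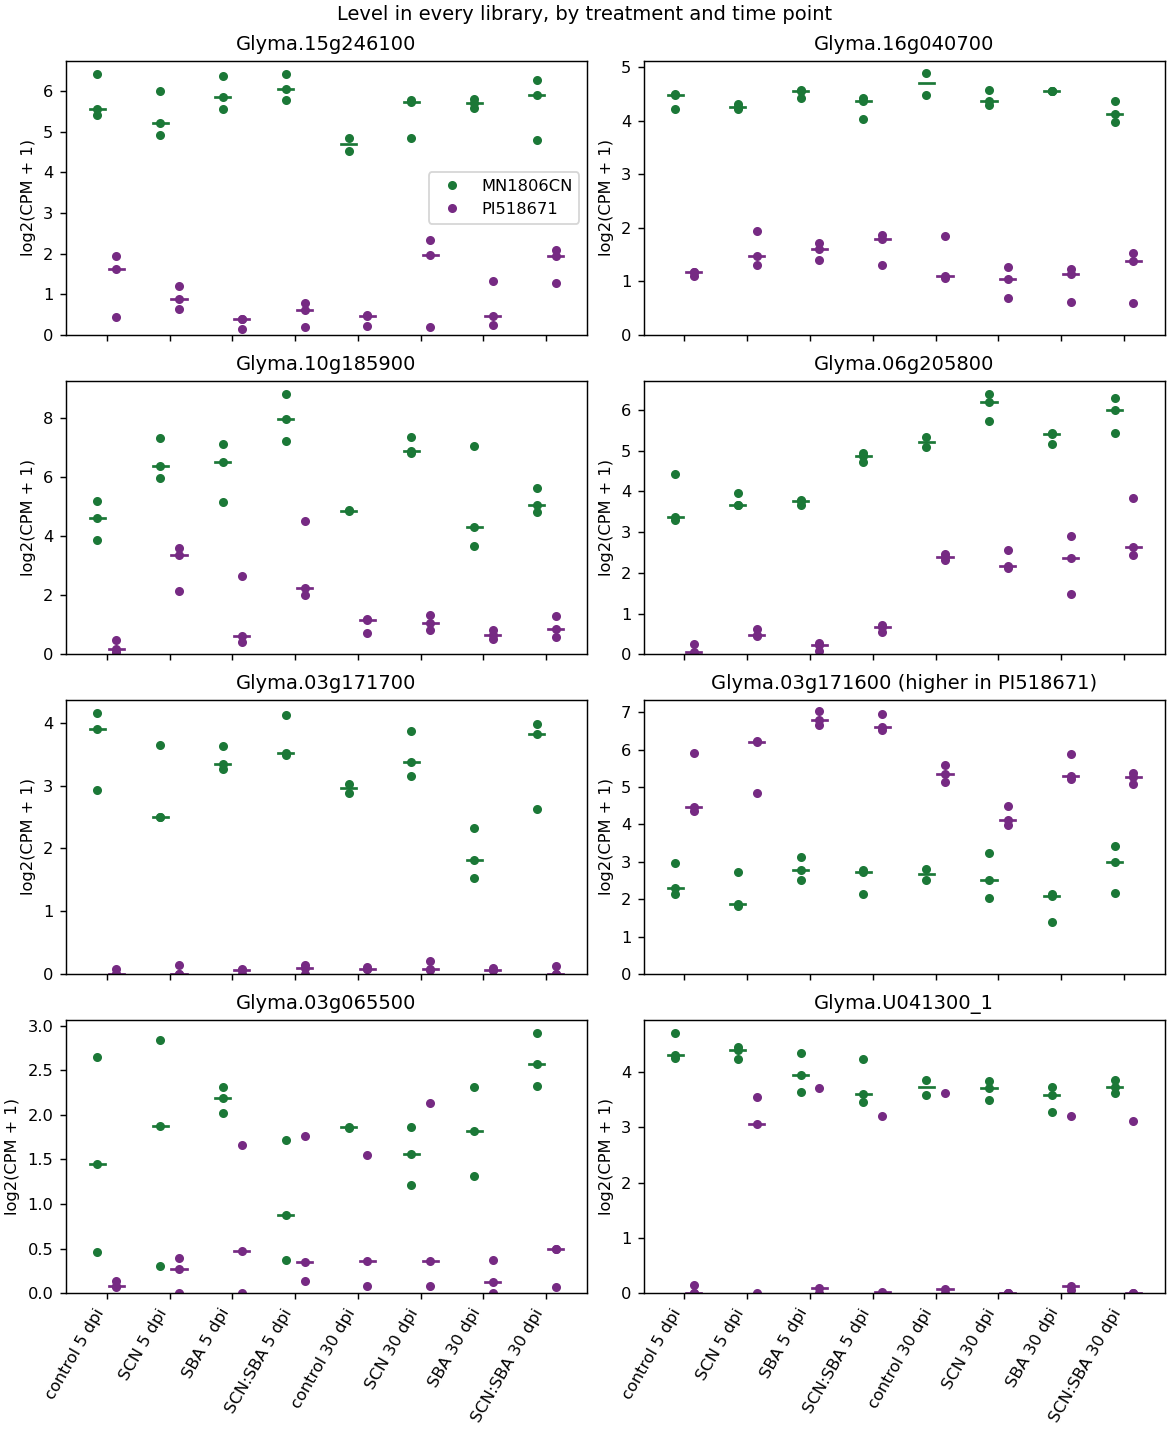
Level of 7 members and of Glyma.03g171600, a gene with the opposite contrast, in every library as log2(CPM + 1), by treatment and time point; points are libraries, short lines medians of a group, green MN1806CN and purple PI518671. Glyma.16g040700 stays between 14.7 and 28.9 CPM in MN1806CN, Glyma.06g205800 rises with time in both cultivars, and Glyma.U041300_1 is near 0 in 17 PI518671 plants and at 7.31 CPM or more in the other 7.

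CPM is not corrected for gene length, so levels were not compared between genes, but the members with the largest CPM carry most counts and the smallest counting error. The 5 largest MN1806CN medians were those of Glyma.13g176100, Glyma.09g041500, Glyma.10g145100, Glyma.15g071200 and Glyma.15g071000. Glyma.13g176100 ran from 181 to 298 CPM in MN1806CN (median 233) and from 35.1 to 166 in PI518671 (median 104), so a member with a ratio of only 2.24 still showed no overlap. Glyma.10g145100 ran from 120 to 243 CPM (median 175) and from 52.1 to 138 (median 66.5), with a small overlap. Glyma.09g041500 had medians of 176 and 86.3 CPM, a ratio of 2.03, and clearly overlapping libraries. Glyma.15g071000 and Glyma.15g071200, separated by a single ID, varied most: the first ran from 65.4 to 1153 CPM in MN1806CN (median 145) against 15.3 to 86.3 in PI518671 (median 40.5), and the second from 67.7 to 535 (median 154) against 16.4 to 157 (median 31.1).

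In a few members the low level of PI518671 was not shared by all its plants; these were chosen after their values were seen. Glyma.U041300_1, on an unplaced scaffold, had 8.70 to 25.2 CPM in all MN1806CN libraries. In PI518671 it was either on or off: 7 plants had 7.31 to 12.2 CPM and the other 17 had 0 to 0.1105, with nothing between. The 7 plants came from 6 groups, replicates 2 and 3 of SCN and replicates 3 of SBA and 1 of SCN:SBA at 5 dpi, and replicates 3 of the control, SBA and SCN:SBA at 30 dpi, so the split did not follow a treatment or a time point. One other gene of the 40862 at the filter divided the same 24 plants in the same way, Glyma.12g156500, which is no member, with 0.515 to 1.41 CPM in those 7 plants and 0.0662 or less in the 17.

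The neighbours Glyma.03g065300, Glyma.03g065400 and Glyma.03g065500 on chromosome 3, the longest run of members by ID, showed another such split. They had MN1806CN medians of 1.39, 1.19 and 2.63 CPM and PI518671 medians of 0.0794, 0.0626 and 0.242 CPM. All 3 reached 0.5 CPM in the same 4 PI518671 plants, replicate 2 of SBA and replicate 1 of SCN:SBA at 5 dpi and replicate 1 of SCN and replicate 2 of the control at 30 dpi. In these 4 plants Glyma.03g065500 had 1.94 to 3.38 CPM, inside its MN1806CN range of 0.236 to 6.57, and in the other 20 it had 0 to 0.408. The other gene with this division of plants was Glyma.20g015800, no member, at 0.234 to 0.440 CPM in the 4 plants and 0.161 or less in the 20. It was also low in MN1806CN, with 0 to 0.962 CPM (median 0.304), so its values rest on few counts. It was found in a search of 40862 genes, and whether such a match arises by chance was not tested. The 2 sets of plants shared 1 plant, replicate 1 of SCN:SBA at 5 dpi. What sets these plants apart was not tested.

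The place of the members along the genome was uneven. Chromosome 16 held 27 of them, 1.60% of its genes at the filter against 0.489% over all chromosomes, and chromosome 4 held 20 (1.00%). Chromosomes 15 and 10 followed with 15 (0.724%) and 16 (0.691%), and chromosome 12 had a single member, Glyma.12g137400 (0.0550%). The unplaced scaffolds together held 4 members, 1.39% of their 288 genes at the filter. The list with the opposite contrast was dense on some of the same chromosomes, with 26 genes on chromosome 15 and 20 on chromosome 16, and had 12 on chromosome 4. Chromosome 18 and the excluded stretch of chromosome 19 were not looked at, and 26 of the genes left out there would have scored above the last member.

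**Figure D4:**
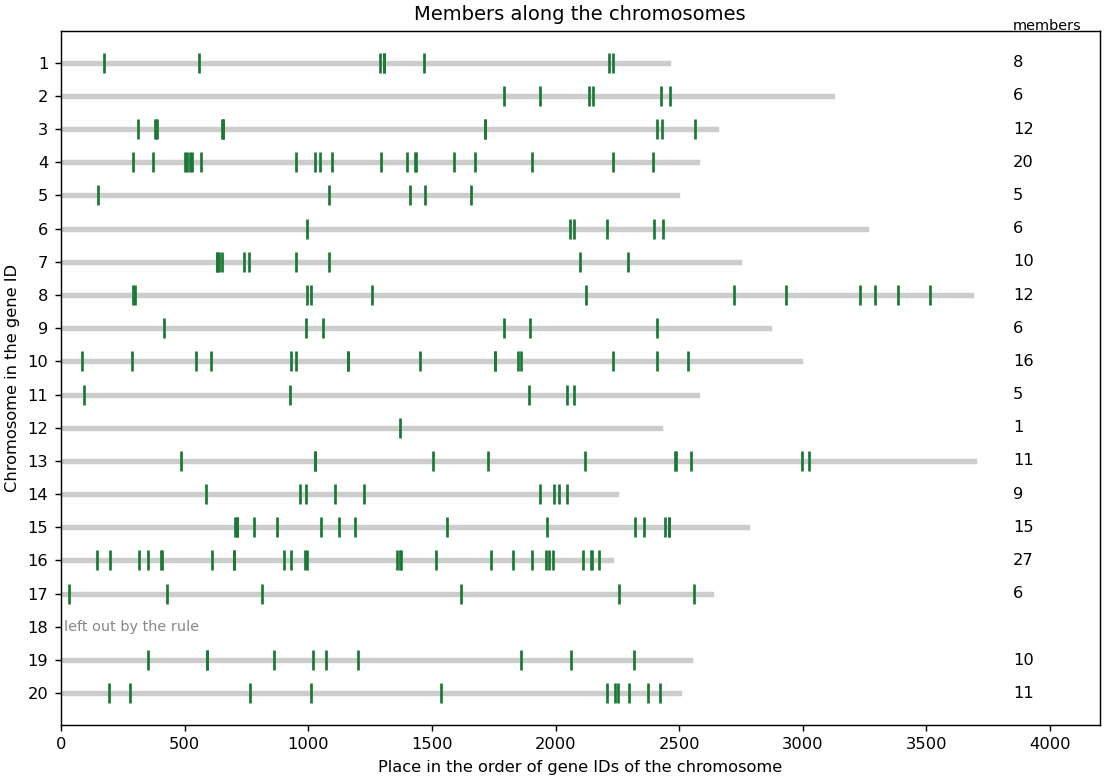
Place of each member (green mark) in the order of gene IDs of its chromosome (grey line), with the number of members of each chromosome at the right; the 4 members on unplaced scaffolds are not drawn and chromosome 18 was left out by the rule. Chromosome 16 carries 27 marks along its whole length, and the 5 members between places 501 and 600 of chromosome 4 form the densest group.

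On a finer scale the members were scattered with a few tight groups. In consecutive windows of 100 IDs, 400 of 534 windows held no member, 92 held 1, and 12 held 3 or more, with 44 members in them. The fullest window, from Glyma.04g050100 to Glyma.04g060000 on chromosome 4, held 5 members and none of the list with the opposite contrast. Windows with 4 members lay on chromosomes 3, 7, 15, 16 and 20, and those on chromosomes 3 and 7 also held 4 and 3 genes with the opposite contrast. A dense window was thus not always one in which all differences ran the same way.

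Adjacent IDs were both members in 10 cases, which involved 19 members. Across the 23 MN1806CN libraries their median Pearson's r was 0.68 (0.14 to 0.85), against a median of 0.039 over all 19900 pairs of members. In PI518671 the median r was 0.34, with 6 of the 10 pairs under 0.4 and the other 4 over 0.9; the libraries of a pair share depth and treatment, and r is a description here. The pair with the highest scores, Glyma.16g040600 and Glyma.16g040700, was also the one with the lowest r in MN1806CN, 0.14. In PI518671 its r was 0.28, and the lowest there was 0.09, for Glyma.13g106400 and Glyma.13g106500. Glyma.16g040600 had 2.30 to 12.4 CPM in MN1806CN and 0.0466 to 0.680 in PI518671, without overlap. Reads were assigned to transcripts of the reference genotype, and where adjacent members are near-identical copies the division of reads between them is uncertain.

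Of the 267 genes at the filter that lay 1 ID away from a member and were not members, 3.37% were higher in MN1806CN by more than 1 on the log2 scale in the median of the 8 pairs, against 1.32% of all genes at the filter that are not members, and 3.75% were lower by as much, against 4.22%. At 2 to 5 IDs away, 1.06 to 2.90% were higher in MN1806CN by more than 1 and 3.87 to 9.46% were lower by as much. Neighbours that are members themselves are not in these counts.

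In 3 places the next gene had the opposite contrast; these genes were chosen by their values. Glyma.03g171600 lies between the members Glyma.03g171500 and Glyma.03g171700 on chromosome 3. It had 14.9 to 131 CPM in PI518671 (median 40.2) and 1.60 to 9.66 in MN1806CN (median 4.73). Its neighbour Glyma.03g171700 had 1.88 to 16.8 CPM in MN1806CN (median 9.13) and 0.152 CPM at most in PI518671, and Glyma.03g171500 had medians of 41.5 CPM in MN1806CN and 11.8 in PI518671. The direction thus changed from one gene to the next and back. At the second place Glyma.03g242900 had medians of 165 CPM in PI518671 and 14.8 in MN1806CN with no overlap, and the member beside it, Glyma.03g243000, had 0.772 to 21.6 CPM in MN1806CN and 0.167 or less in PI518671, with 16 PI518671 libraries at 0. The third place, Glyma.07g063800 beside the member Glyma.07g063900, had a smaller contrast, with medians of 5.83 CPM in PI518671 and 2.16 in MN1806CN. Whether reads of one cultivar were assigned to the neighbour of the gene they came from was not tested.

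Some members far apart in the genome had nearly the same profile. Pearson's r was 0.9 or more in both cultivars, taken separately over 23 and 24 libraries, for 8 of the 19900 pairs of members, which involved 11 members, and 7 of the 8 pairs joined different chromosomes or scaffolds. Glyma.06g205800 and Glyma.04g159300 were the most alike, with r of 0.97 in MN1806CN and 0.98 in PI518671. A second set, Glyma.03g038200, Glyma.03g038600, Glyma.19g086200, Glyma.10g253600 and Glyma.01g130500, was linked by 5 of the pairs. All libraries of a cultivar share their treatments and time points, so members that respond alike to these have a high r, and no shared function can be read from it.

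The rule compared no treatment with its control, but it used the same libraries and required the cultivar difference in every group. It can therefore favour some treatment changes over others. Treatment effects within a cultivar were tested with edgeR's quasi-likelihood F test, with Benjamini-Hochberg adjustment over the 42996 to 43089 genes of each fit. A gene was called at an adjusted p under 0.05. The 3 treatments of a cultivar and time point share their controls, so their results are not independent of each other. Of the 200 members, 93 were called in at least 1 of the 12 treatment comparisons, 59 within MN1806CN and 49 within PI518671. These were 46.5, 29.5 and 24.5% of the members, against 40.5, 20.9 and 29.5% of the 43122 genes tested in any fit. The rule chose genes high in MN1806CN and low in PI518671, and level affects how readily a change is called. The 31 members under 0.5 CPM in every PI518671 library passed the filter through MN1806CN libraries. The shares of members and of all genes are therefore not a like comparison. No treatment response was called in the other 107.

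**Figure D5:**
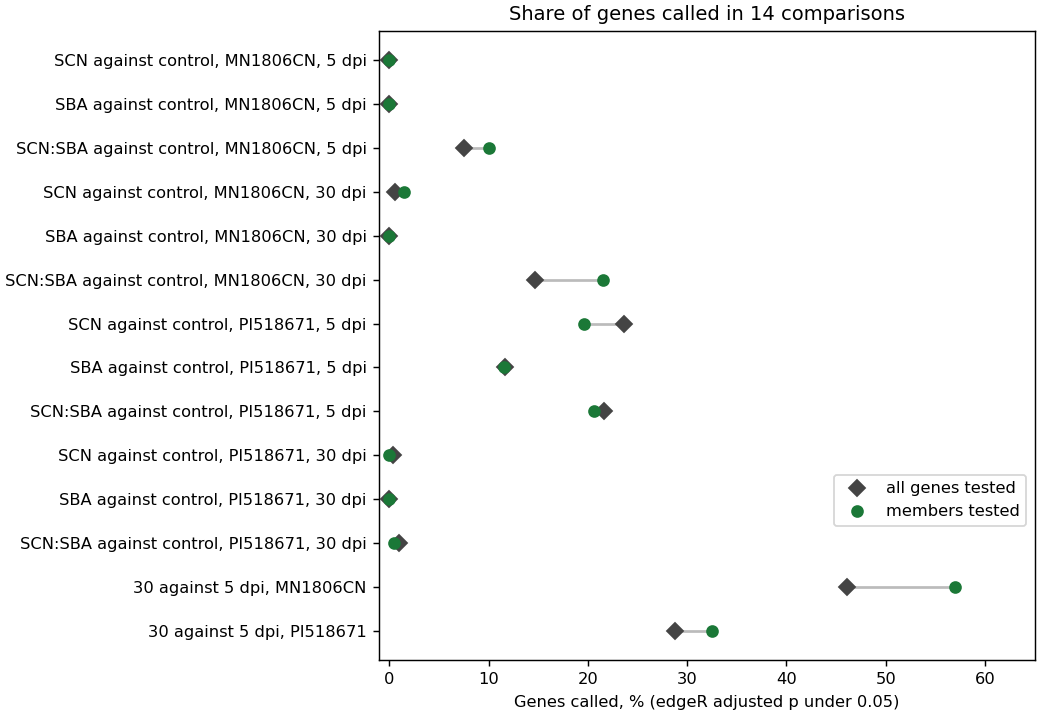
Share of genes called by edgeR's quasi-likelihood test in the 12 treatment comparisons and the 2 time comparisons, in %, for the members tested (green circles) and all genes tested (grey diamonds). The members lie above all genes in MN1806CN with both pests at 30 dpi (21.5 against 14.7%) and over time (57 against 46.1%), and below them for SCN in PI518671 at 5 dpi (19.6 against 23.6%). Members were chosen as high in MN1806CN and low in PI518671, so the shares are not a like comparison.

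In MN1806CN few members were called by edgeR for a single pest. At 5 dpi no member was called by edgeR for SCN (0.00465% of all genes were called) or for SBA (0% of all genes), with 47 and 38 members at an unadjusted p under 0.05 (23.5 and 19%, against 17.3 and 19.5% of all genes) and 21 and 23 called by DESeq2, which called 5.48 and 7.97% of all genes. At 30 dpi 3 members of the 200 tested were called for SCN, 2 higher and 1 lower (1.5%, against 0.572% of all genes, 0.167% higher and 0.405% lower). None was called for SBA (0% of all genes). For SBA, 27 members (13.5%) were at an unadjusted p under 0.05 by edgeR, against 10.4% of all genes, and DESeq2 called 2 members and 1.08% of all genes.

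With both pests together 20 members were called at 5 dpi in MN1806CN, 12 higher and 8 lower, 10% of the members against 7.48% of all genes, 3.31% higher and 4.17% lower. Glyma.13g251700 had the smallest adjusted p of those that rose. It had 3.52, 4.80 and 2.43 CPM in the controls and 103, 512 and 119 CPM with both pests, a log2 fold change of 5.83 ± 0.65 (SE; adjusted p = 0.00956, edgeR's quasi-likelihood F test, Benjamini-Hochberg adjusted). Every plant with both pests was above every control, and replicate 2 was the highest by far. Glyma.13g252300, 6 IDs away and named after its values were seen, rose in the same plants, from 16.8, 23.7 and 14.4 CPM to 323, 1325 and 493 (log2 fold change 5.03 ± 0.65, SE). Glyma.08g029000 fell the most clearly, from 39.2, 44.1 and 65.4 CPM to 16.5, 19.2 and 12.8, by 1.89 ± 0.26 (SE) on the log2 scale, with adjusted p = 0.0125 by edgeR's quasi-likelihood F test, Benjamini-Hochberg adjusted; without replicate 2 of the plants with both pests this was 0.0599. The count of 20 rested on few plants: it was 2 and 4 without replicates 2 and 3 of SCN:SBA, and 35 and 3 without replicates 2 and 3 of the control.

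At 30 dpi both pests together changed more members of MN1806CN, 43 of 200, 17 higher and 26 lower (21.5%, against 14.7% of all genes, 6.52% higher and 8.15% lower). Glyma.U039500, on an unplaced scaffold, rose the most clearly. The controls had 1.82 and 1.29 CPM and the plants with both pests 76.9, 72.8 and 88.7, a log2 fold change of 5.47 ± 0.42 (SE; adjusted p = 0.000108, edgeR's quasi-likelihood F test, Benjamini-Hochberg adjusted). The next ID, the member Glyma.U039400, named after its values were seen, rose in the same plants, from 13.7 and 18.8 CPM to 68.4, 101 and 115, by a log2 fold change of 2.34 ± 0.40 (SE). SCN alone raised Glyma.U039500 less, to 10.4, 6.75 and 12.6 CPM (2.57 ± 0.38, SE; adjusted p = 0.0243, edgeR's quasi-likelihood F test, Benjamini-Hochberg adjusted, and 0.0530 to 0.172 without replicate 2 or 3 of SCN or either control), and SBA alone left it at 2.82, 3.58 and 1.66 CPM, which was not called.

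Glyma.19g101800 led the members that fell with both pests at 30 dpi. It had 20.1 and 24.4 CPM in the controls and 6.07, 7.89 and 4.73 with both pests, a log2 fold change of −2.08 ± 0.23 (SE; adjusted p = 0.000447, edgeR's quasi-likelihood F test, Benjamini-Hochberg adjusted). Glyma.06g099500 was the member that fell with SCN alone, from 6.96 and 28.0 CPM to 2.26, 1.74 and 1.31, by 3.43 ± 0.49 (SE) on the log2 scale, with adjusted p = 0.0211 by edgeR's quasi-likelihood F test, Benjamini-Hochberg adjusted. Its controls differed widely from each other, and the adjusted p was 0.104 to 0.122 without the higher control or without replicate 2 or 3 of SCN. The count of 43 for both pests was 16 or 21 without replicate 1 or 2 of the control. The 3 members called for SCN alone at 30 dpi were 0 without replicate 2 or 3 of SCN or replicate 2 of the control, and 1 without replicate 1 of the control.

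In PI518671 the members were called most often at 5 dpi, as were all genes. SCN changed 39 of the 199 members tested, 25 higher and 14 lower (19.6%, against 23.6% of all genes, 13.4% higher and 10.2% lower). SBA changed 23, 10 higher and 13 lower (11.6%, against 11.6%, 5.28% higher and 6.34% lower), and both pests 41, 24 higher and 17 lower (20.6%, against 21.6%, 12.6% higher and 9.02% lower). These shares were at or under those of all genes, so they say nothing particular of the members. The median log2 fold change over all genes was 0.086 for SCN, 0.19 for SBA and 0.13 for both pests, and over the members 0.32, 0.30 and 0.73. The rule used these libraries to choose the members, so these medians are not a like comparison.

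All 3 comparisons lean on the same controls, the ones that stood apart. Glyma.20g224200 had the smallest adjusted p of the members that rose in each of them. It had 2.97, 0.791 and 0.307 CPM in the controls, 15.7, 15.3 and 18.6 under SCN, 14.3, 13.3 and 8.86 under SBA, and 21.5, 28.5 and 31.2 under both pests. The treated plants were all above the controls, and the log2 fold changes were 3.36 ± 0.52, 2.80 ± 0.51 and 3.96 ± 0.53 (SE), with adjusted p of 0.00122, 0.00746 and 0.00110 by edgeR's quasi-likelihood F test, Benjamini-Hochberg adjusted. The PI518671 plants at 30 dpi, controls included, had 10.1 to 33.7 CPM, but they also differ in age and water bath. Whether the controls at 5 dpi were low or the treatments raised the gene was not tested. Glyma.08g293300 led the members that fell under SCN and under both pests, from 7.79, 12.5 and 15.8 CPM to 2.64, 1.69 and 2.17 and to 1.78, 2.88 and 3.81, by 3.06 ± 0.48 and 2.78 ± 0.47 (SE) on the log2 scale. Glyma.17g255900 led with SBA, where 34.1, 37.9 and 43.6 CPM fell to 8.76, 17.6 and 13.7 CPM, by 2.21 ± 0.36 (SE) on the log2 scale.

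The counts of PI518671 at 5 dpi changed with the control that was left out. The share of all genes called in the same fits was not taken, so it is not known whether the members moved more than other genes. Without replicate 1 of the control 52, 45 and 50 members were called for SCN, SBA and both pests. Without replicate 2 they were 20, 7 and 18, and without replicate 3 they were 17, 5 and 14. Treated plants moved them too: 24 and 25 were called for SCN without its replicates 1 and 2, 10, 13 and 10 for SBA without its replicates 1, 2 and 3, and 25 and 22 for both pests without their replicates 1 and 2.

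At 30 dpi in PI518671 196 members were tested. No member passed for SCN (0.358% of all genes did, 0.307% higher and 0.0511% lower) or SBA (0.00697%, all higher) by edgeR, with 39 and 30 members at an unadjusted p under 0.05 (19.9 and 15.3%, against 14.5 and 15.6% of all genes) and 14 and 6 called by DESeq2, which called 4.72 and 3.21% of all genes. With both pests 1 member rose, 0.510% of the members against 1.02% of all genes (0.68% higher and 0.339% lower), and 49 were at an unadjusted p under 0.05 (25%, against 18.1% of all genes). DESeq2 called 29 members here, and 7.66% of all genes. The member that edgeR called was Glyma.02g213500, with 1.39, 1.53 and 1.19 CPM in the controls and 17.0, 20.4 and 14.2 with both pests. Its log2 fold change was 3.61 ± 0.61 (SE), with adjusted p = 0.0360 by edgeR's quasi-likelihood F test, Benjamini-Hochberg adjusted. The 3 treated plants were well above the controls, but the call was lost without replicate 1 or 2 of SCN:SBA or any 1 of the 3 controls (adjusted p of 0.107 to 0.167); without replicate 3 of SCN:SBA 2 members were called. For SBA, 7 members were called without its replicate 3.

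Glyma.10g185900, among the highest scores, was called with both pests at 5 dpi in each cultivar. It went from 23.2, 35.0 and 13.5 to 146, 449 and 244 CPM in MN1806CN, and from 0.125, 0.398 and 0.05001 to 3.73, 21.8 and 2.99 CPM in PI518671. The log2 fold changes were 3.31 ± 0.59 and 4.83 ± 1.24 (SE), with adjusted p of 0.0172 and 0.0176 by edgeR's quasi-likelihood F test, Benjamini-Hochberg adjusted. Whether the effect differs between the cultivars was not tested.

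Between 5 and 30 dpi, averaged over the 4 treatments, 114 of the 200 members were called in MN1806CN, 58 higher and 56 lower at 30 dpi (57%, against 46.1% of all genes, 23.4% higher and 22.7% lower), and 65 in PI518671, 41 higher and 24 lower (32.5%, against 28.8%, 15.3% higher and 13.5% lower). The 4 treatments contribute to this comparison in equal parts, and leaving out any library gave 100 to 116 members in MN1806CN and 53 to 70 in PI518671. Among members called in both cultivars, 30 were higher at 30 dpi in both, 17 lower in both, and 1 was called in opposite directions. The direction was thus the same in 97.9% of these 48 members, and in 92.5% of the 8110 genes of the whole table called in both. The rule required a large cultivar difference at both time points, which by itself favours genes that move the same way in both cultivars. No agreement particular to the members can be read from these shares. That member, Glyma.09g189500, fell by 0.61 ± 0.18 (SE) in MN1806CN and had a log2 fold change of 0.89 ± 0.32 (SE) in PI518671, with adjusted p of 0.0107 and 0.0449 by edgeR's quasi-likelihood F test, Benjamini-Hochberg adjusted; the difference between these effects was not tested.

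Glyma.06g205800 and Glyma.04g159300, the pair with the most similar profiles, rose most clearly in both cultivars. In the controls Glyma.06g205800 went from 9.32, 20.7 and 8.86 CPM at 5 dpi to 33.3 and 39.2 at 30 dpi in MN1806CN, and from 0, 0.199 and 0.05001 to 3.96, 4.49 and 4.27 in PI518671. Over all treatments its log2 fold change was 1.83 ± 0.13 (SE) in MN1806CN and 4.38 ± 0.33 in PI518671, with adjusted p of 1.56e-08 and 3.14e-09 by edgeR's quasi-likelihood F test, Benjamini-Hochberg adjusted. In Glyma.04g159300 the values were 1.32 ± 0.11 and 3.93 ± 0.39 (SE). The PI518671 controls at 5 dpi had 0.199 CPM or less of Glyma.06g205800, so its fold change in that cultivar rests in part on a few counts. Whether the rise differs between the cultivars was not tested for either gene. Even at 30 dpi the PI518671 plants did not reach the MN1806CN plants of the same time point: for Glyma.06g205800 the highest PI518671 value was 13.2 CPM and the lowest MN1806CN value at 30 dpi was 33.3.

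Glyma.08g293300 and Glyma.03g031000 fell most clearly with time in both cultivars. In the controls Glyma.03g031000 went from 68.1, 97.3 and 60.1 to 20.1 and 21.7 CPM in MN1806CN and from 30.2, 17.7 and 24.6 to 12.9, 9.10 and 7.22 CPM in PI518671. Its log2 fold changes over all treatments were −1.11 ± 0.13 and −1.48 ± 0.13 (SE), and those of Glyma.08g293300 −1.80 ± 0.19 and −1.74 ± 0.24 (SE). Both genes kept a higher median in MN1806CN at either time point. Of the 200 members, 54 were called in none of the 14 comparisons. The same share over all genes was not taken, so no stability particular to the members can be read from this. Among the 10 highest scores these included Glyma.16g092900, Glyma.10g175400 and Glyma.07g063000. All 3 were under 0.5 CPM in all 24 PI518671 libraries, where a change could hardly be called.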

How the data were processed

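Whole-root RNA was sequenced as single reads. Per the submitters' notes and the paper's methods, the authors checked reads with FastQC 0.11.3 and MultiQC 1.3, trimmed them with Btrim64 and quantified them with Salmon 0.9.1 on the primary transcripts of Wm82.a2.v1, which come from 1 of the 2 cultivars, so reads of the other can be lost or assigned to a similar transcript where sequences differ. What the authors deposited is a table of estimated counts (a row for each gene), neither scaled nor filtered; all 47 columns matched a sample's labels, and groups came from those labels. Replicates are plants from separate blocks.

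CPM was computed on column totals. For tests, estimated counts were rounded and fitted with edgeR 4.0.16 in R 4.3.3 (TMM, quasi-likelihood F test, two-sided, Benjamini-Hochberg over all genes tested), keeping the 43122 genes at 0.5 CPM or more in at least 1 library. Treatment fits held the libraries of 1 cultivar and time point, time fits those of 1 cultivar, 14 comparisons in all. Each SE was derived as log2 fold change divided by the root of its F statistic. The fits were tested on simulated data. Descriptions and plots used Python 3.11.15, numpy 2.4.6, pandas 2.3.3 and matplotlib 3.10.9. The alternatives were DESeq2 1.42.0, RLE size factors, no filter, the replicate number as a block, each library left out in turn and other forms of the score.

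Named were the 10 highest scores, the 5 highest MN1806CN medians, the 3 members just inside and 3 genes just outside the limit, the called members of smallest adjusted p in each direction and the longest runs of neighbours; others are marked as chosen by their values. The members and lists were chosen with earlier results of these data known. Planned lists of gene families, tissue markers and protein similarity needed gene names or proteins and were not used here. Counting error alone limits low values, since reads carry no molecular identifiers: 3 counts stood for 0.0626 to 0.318 CPM in PI518671 libraries.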

Additional observations from a re-analysis of the deposited data

How the results depend on the processing

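The list depended on the form of the rule more than on any plant. With a constant of 0.5 in the log2 183 of the 200 members were taken again, with a constant of 4 148, with TMM scaling 169, with means in place of medians 159, without the control pair at 5 dpi 149, and with the mean of the 8 differences in place of the smallest 91. Leaving out each library in turn kept 180 to 198, and 93 members stayed whichever library was left out.

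DESeq2's Wald test called 21, 23 and 42 members in MN1806CN at 5 dpi for SCN, SBA and both pests (edgeR 0, 0 and 20), 13 and 2 at 30 dpi for SCN and SBA (edgeR 3 and 0), and 14, 6 and 29 in PI518671 at 30 dpi for SCN, SBA and both (edgeR 0, 0 and 1). Without the filter, SCN in MN1806CN at 30 dpi called 5 and both pests in PI518671 at 30 dpi 2. RLE size factors left every count of called members within 1.5 times. The causes were not tested.

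Same-numbered replicates did not deviate together in every pair of any treatment comparison by over 0.1 (r of −0.52 to 0.38), and no source used here says that a number marks a block, so the numbers were not taken as pairing the plants. With the replicate number as a block, 2 and 35 members were called in MN1806CN at 5 dpi for SCN and both pests, 0 at 30 dpi for SCN, and 15 and 26 in PI518671 at 5 dpi for SBA and both pests; the block moved no other count by over 1.5 times. The adjusted p for SCN in MN1806CN at 30 dpi was then 0.0915 for Glyma.U039500 and 0.0700 for Glyma.06g099500 (edgeR's quasi-likelihood F test, Benjamini-Hochberg adjusted).

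Leaving out each library in turn gave 0 members for SCN and for SBA in MN1806CN at 5 dpi and 2 to 35 for both pests, 0 to 2, 0 and 16 to 40 at 30 dpi, and in PI518671 17 to 52, 5 to 45 and 14 to 50 at 5 dpi and 0, 0 to 7 and 0 to 2 at 30 dpi. Over time the counts were 100 to 116 in MN1806CN and 53 to 70 in PI518671. Where a group kept 1 library, it was assumed to vary like the other groups. Shares of all genes called were not taken for the fits with a block or with a library left out. Those counts describe the members only and do not set them against other genes. For the 21 named fold changes, 331 alternatives kept direction and call, 15 kept direction but lost the call, and none changed direction. Members near 0 in PI518671 rest on a few counts there, and depth limits what can be said of their changes in that cultivar.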
